A study of Mus musculus with 6 samples.

Results

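Lysosomes are acidic organelles in which a cell breaks down glycoproteins, glycolipids, sulfated sugars, fats and proteins. Their soluble hydrolases are folded and given N-glycans in the endoplasmic reticulum (ER), and most then receive a mannose 6-phosphate tag in the Golgi that sends them to the lysosome. Many of their genes carry a DNA element read by the transcription factors TFEB and TFE3. The set described here holds 40 genes for such hydrolases, their activators and lysosomal membrane proteins, without the cathepsins. The genes were listed by name, and each was read from the probe set that the platform annotation gives to that gene alone and that had the highest mean over all 6 arrays. That mean is the only measured value in the rule, but the genes were listed with earlier results of these data known, so their counts beside all genes are a description. All 40 were found among 19936 genes measured.

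The tested mice were male Sel1L-delta-IEC animals of 8 weeks, in which a floxed exon of Sel1L was removed by a Cre recombinase driven by the villin-1 promoter, active in intestinal epithelial cells. The floxed allele had lost its lacZ-neo cassette through a cross to β-actin FLPe mice, and the Cre line had been backcrossed to C57BL/6J. They were set against male wild type mice of the same age, and both genotypes are given as C57BL/6J. SEL1L is the adaptor of the HRD1 ubiquitin ligase, which removes misfolded proteins from the ER. Colon epithelium was profiled on Affymetrix arrays, 3 from knockout and 3 from wild type mice. Whether the wild type mice carried floxed alleles, and whether each array stands for 1 mouse, is not given in the sources used here, so the p-values here reflect array-to-array spread, which may be technical. By this design, cells of the preparation outside the epithelium would keep Sel1L, which was not measured by cell type.

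Levels are RMA values on a log2 scale, with array medians between 6.32 and 6.36. Each probe set has its own affinity, so levels are compared between genotypes and not between genes. Sel1l read 8.70, 9.06 and 8.66 in knockout arrays and 9.45, 9.67 and 9.54 in wild type arrays. Its change of -0.74 ± 0.11 (SE) had limma's adjusted p = 0.018, and an exact two-sided permutation test gave p = 0.1, the smallest that 3 arrays against 3 allow. Of 14 markers of colon epithelium, all lay above the array median, and their mean level was 11.95 to 12.03 in knockout and 11.99 to 12.12 in wild type arrays. The markers thus fit the labelled tissue.

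Of the 40 lysosomal genes, 8 fell in the knockout and none rose (limma, adjusted p under 0.05 over all genes). They were Gm2a, Cpq, Man2b1, Dpp7, Acp5, Gla, Ppt1 and Lamp2. Over all genes 1.63% were called, 0.712% lower and 0.918% higher. The median change of the 40 members was -0.21, beside 0.02 over all genes, and 37 of the 40 estimates were below 0, as were 42.8% of all genes. In 26 members every knockout array lay below every wild type array, which held for 7.98% of all genes, and in 1 member, Smpd1, every knockout array lay above, as in 11.4% of all genes. Of the 26, 18 were not called. An unadjusted p under 0.05 was reached by 25 members, 24 of them lower, and by 13.3% of all genes, 5.62% lower. The changes were modest, from -0.75 to 0.20, and 21 members lay under the 5th percentile of all genes, -0.20.

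The count of called members depended on the setting. It was 13 of 40 without the dimmest 25% of genes, 15 of 39 without the dimmest 50% and 16 of 40 with an intensity trend in the variance prior, all of them lower. Under these settings 1.32%, 2.75% and 1.45% of all genes tested were called lower, in the same order. With 1 array left out it was 3 without knockout array 1 or wild type array 1, and 5 without knockout array 2 or wild type array 2. The members are mostly bright genes, with 39 of 40 among the 9968 brightest genes. There the median change was 0.0028, 1.26% of genes were called lower and 12.7% had every knockout array below every wild type array. The 0.712% and 7.98% of all genes given with each role below are lower than these shares among bright genes. In bulk epithelium, fewer cells of a type and less RNA per cell cannot be told apart.

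**Figure D1:**
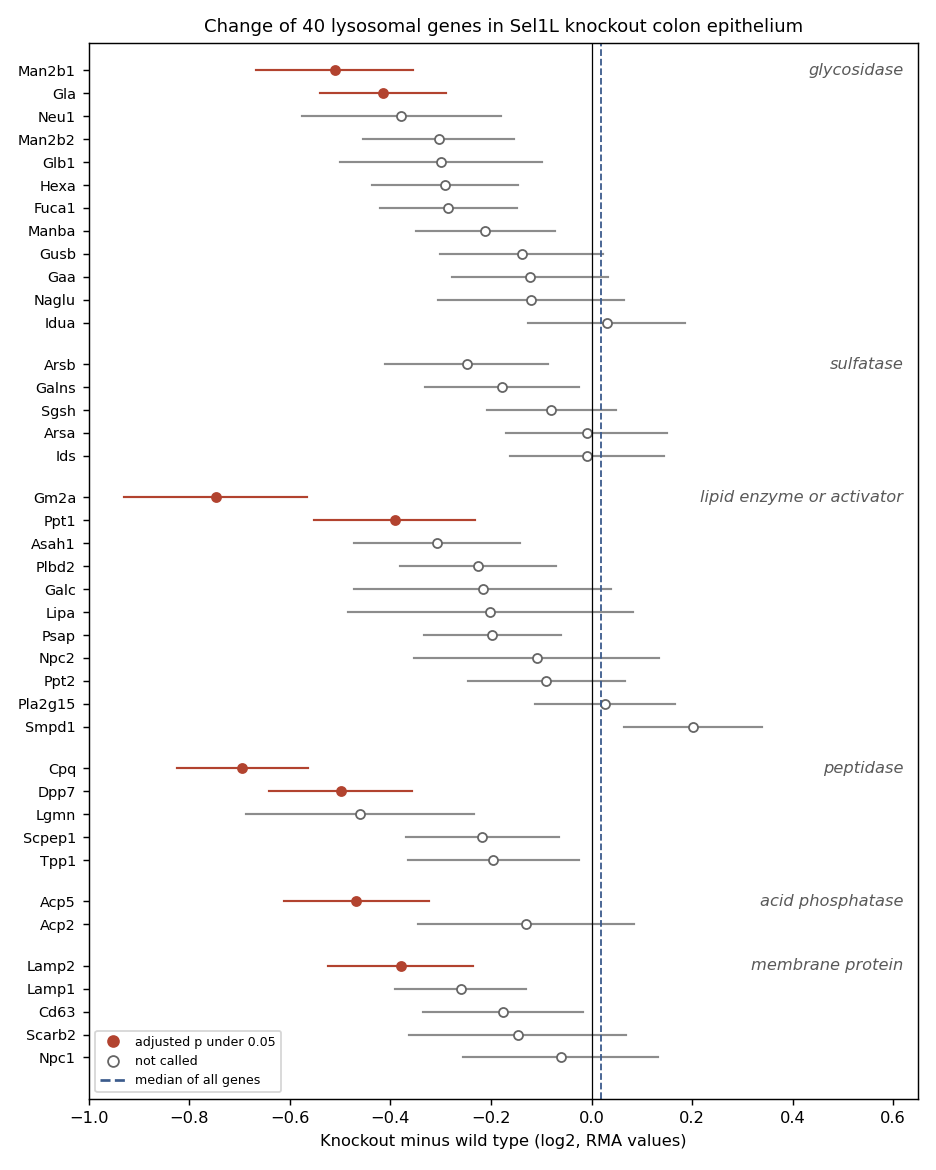
Change of each of the 40 genes (knockout minus wild type, log2), grouped by role, with its 95% confidence interval from limma. Filled points are the 8 genes with an adjusted p under 0.05, the dashed line marks the median of all genes at 0.02, and 37 points lie below 0.

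The upstream DNA of the members was searched, after their changes were seen, for the element that TFEB and TFE3 read, as a description of the reference sequence. RefSeq promoter windows (build GRCm38.p6, 250 bases before to 50 bases after a transcript start) were at hand for 35 members. Stretches of 100 bases are shown for Gla, Dpp7 and Lamp1, which hold the densest or longest matches, and for Gm2a, the member with the lowest estimate, which holds none. They run 5′ to 3′ on the gene's own strand, and capitals mark CACGTG, or TCACGTGA where the longer form is complete.
Gla, chrX:134601156-134601255, minus strand: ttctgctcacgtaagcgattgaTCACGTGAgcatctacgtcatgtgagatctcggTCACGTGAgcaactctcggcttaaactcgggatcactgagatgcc
Dpp7, chr2:25356390-25356489, minus strand: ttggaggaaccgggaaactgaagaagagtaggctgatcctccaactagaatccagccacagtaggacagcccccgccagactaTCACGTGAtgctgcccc
Lamp1, chr8:13159061-13159160, plus strand: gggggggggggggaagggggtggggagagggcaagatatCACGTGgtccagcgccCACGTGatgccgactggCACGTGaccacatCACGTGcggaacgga
Gm2a, chr11:55097885-55097984, plus strand: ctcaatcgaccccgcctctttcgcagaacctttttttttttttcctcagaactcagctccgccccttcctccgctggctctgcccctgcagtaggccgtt

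The hexamer CACGTG, known as an E-box, occurred in 9 of the 35 members (25.7%), against 8.09% of 27025 genes with a window and 7.15% of 32851 windows. The members with it were Dpp7, Lgmn, Gla, Glb1, Lamp1, Gaa, Naglu, Sgsh and Arsa. TCACGTGA occurred in Dpp7 and, in 2 copies, in Gla, that is in 5.71% of the members and 1.12% of genes. The full CLEAR element of TFEB and TFE3, which is TCACGTGA with G before and C after it, was in none of the 35 and in 0.37% of genes. With 1 letter changed or none, it was in 5 members (14.3%) and in 2.06% of genes. In Dpp7 that match lay at another place than the TCACGTGA shown above. These motifs read the same on both strands, and each shorter one lies within the longer. The genes used for comparison include noncoding ones. A match is a description and not a binding site, and E-boxes are read by other factors too. The windows are reference sequence, and many lysosomal genes carry the element whatever the genotype, so these shares do not bear on the knockout.

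The 9 members with the hexamer had a median of -0.26 (from -0.50 to -0.01) and 2 were called, Dpp7 and Gla. The 26 without it had a median of -0.21 (from -0.75 to 0.20) and 5 were called. The difference was not tested, and 0.712% of all genes were called lower. Galns, Asah1, Plbd2, Cpq and Npc1 were not searched.

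**Figure D2:**
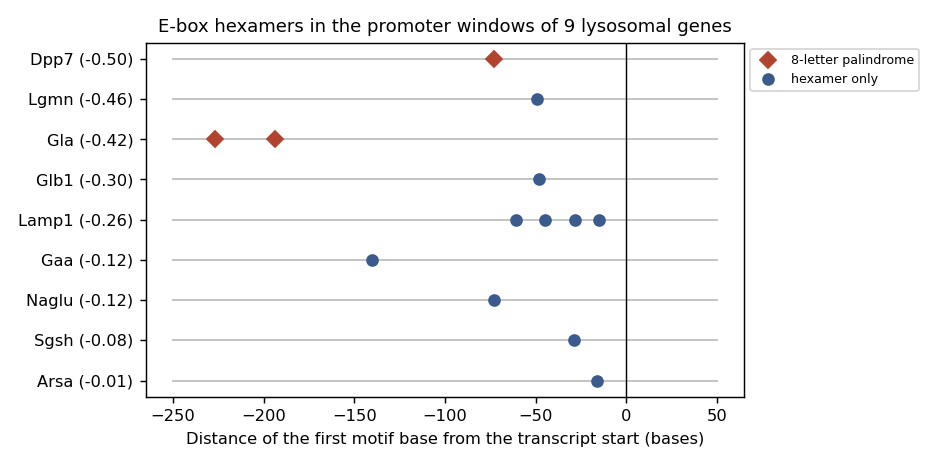
Position of each CACGTG in the windows of the 9 members that hold it, as the distance of its first base from the transcript start, with the change of the gene (log2) in brackets. Diamonds mark hexamers within TCACGTGA and circles the others, and Lamp1 has 4 hexamers, at 61, 45, 28 and 15 bases before its start.

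Glycosidases remove sugars one at a time from glycoproteins, glycolipids and glycosaminoglycans. Of 12 measured, 2 fell (0.712% of all genes were called lower), none rose, and the median change was -0.29. In 9 every knockout array lay below every wild type array, which held for 7.98% of all genes. Man2b1, the major lysosomal α-mannosidase, read 9.40, 9.57 and 9.45 in knockout arrays and 10.03, 9.91 and 10.01 in wild type arrays. Its lowest wild type array stood 0.35 above its highest knockout array, and the change was -0.51 ± 0.068 (SE, adjusted p = 0.012). The call ended without knockout array 1 (adjusted p = 0.061) or wild type array 1 (adjusted p = 0.059).

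Gla, which encodes α-galactosidase A and whose human loss causes Fabry disease, read 8.10, 8.13 and 8.08 in knockout arrays and 8.51, 8.53 and 8.52 in wild type arrays. Arrays of a genotype differed little beside the gap of 0.38 between the genotypes. The change was -0.42 ± 0.055 (SE, adjusted p = 0.012), which made Gla 1.33-fold higher in wild type, and the adjusted p was 0.059, 0.054 and 0.054 without knockout array 1, wild type array 1 and wild type array 2.

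Other glycosidases acting on glycoprotein and ganglioside sugars had smaller estimates that did not pass the test. Neu1, the lysosomal sialidase, read 8.85, 8.89 and 8.87 in knockout arrays, against 9.43, 9.22 and 9.10 in wild type arrays, a change of -0.38 ± 0.086 (adjusted p = 0.085). Its knockout arrays were close together and its wild type arrays spread over a wider range. Without wild type array 3, the lowest of its genotype, Neu1 was called (adjusted p = 0.046).

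Man2b2, a second α-mannosidase, differed by -0.30 (adjusted p = 0.069), Hexa, the α subunit of β-hexosaminidase, by -0.29 (adjusted p = 0.073) and Fuca1, the α-fucosidase, by -0.28 (adjusted p = 0.063). Their knockout arrays all lay below the wild type arrays, by at least 0.17. Glb1, the β-galactosidase, differed by -0.30 (adjusted p = 0.17), and Manba, the β-mannosidase, by -0.21 (adjusted p = 0.16). Gaa, the glycogen-degrading α-glucosidase, differed by -0.12, with a gap of only 0.0096 between the genotypes (adjusted p = 0.50). Gusb (-0.14), Naglu (-0.12) and Idua (0.03), which act on glycosaminoglycans, had overlapping arrays.

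Sulfatases remove sulfate groups so that glycosaminoglycans and sulfatide can be broken down further. None of the 5 was called, and their median change was -0.08, with 2 at an unadjusted p under 0.05, both lower (5.62% of all genes). Arsb read 8.51, 8.52 and 8.36 in knockout arrays and 8.80, 8.67 and 8.67 in wild type arrays, a change of -0.25 ± 0.071 (adjusted p = 0.16). A second Arsb probe set differed by -0.14, in the same direction. Galns differed by -0.18 (adjusted p = 0.29) and Sgsh by -0.08 (adjusted p = 0.61), with no overlap between genotypes. Arsa and Ids each differed by -0.01, with arrays that overlapped and 95% confidence intervals of -0.17 to 0.15 and -0.16 to 0.14.

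Lipid enzymes and activators held both the lowest estimate of the 40 genes, in Gm2a, and the highest, in Smpd1. Of 11 measured, 2 fell (0.712% of all genes were called lower), none rose, and the median change was -0.20. In 5 all knockout arrays lay below (7.98% of all genes) and in 1 above (11.4% of all genes). Gm2a, the activator protein that lifts the ganglioside GM2 out of membranes so that β-hexosaminidase A can cut it, read 8.79, 8.74 and 8.86 in knockout arrays and 9.41, 9.55 and 9.67 in wild type arrays. The genotypes stood 0.55 apart. The change was -0.75 ± 0.079 (SE, adjusted p = 0.0064), which made Gm2a 1.68-fold higher in wild type, and the call held with each array left out (adjusted p of at most 0.039). Hexa, which encodes a subunit of the enzyme that GM2A serves, differed by -0.29 as given above.

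Ppt1, a thioesterase that removes palmitate from proteins, read 8.97, 8.96 and 8.79 in knockout arrays and 9.26, 9.35 and 9.28 in wild type arrays. Knockout array 3 was the lowest and the genotypes stood 0.29 apart. The change was -0.39 ± 0.070 (SE, adjusted p = 0.035), and the call ended with each array left out, at an adjusted p of 0.091, 0.086 and 0.091 without knockout arrays 1, 2 and 3 and of 0.11, 0.13 and 0.076 without wild type arrays 1, 2 and 3.

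In the sphingolipid enzymes the estimates ran both ways. Smpd1, the acid sphingomyelinase that makes ceramide, read 8.93, 8.98 and 8.88 in knockout arrays and 8.69, 8.72 and 8.78 in wild type arrays, all knockout arrays above. Its change of 0.20 ± 0.060 did not pass the test (adjusted p = 0.18). Asah1, the acid ceramidase that breaks ceramide down, read 10.29, 10.37 and 10.34 in knockout arrays and 10.55, 10.77 and 10.61 in wild type arrays, a change of -0.31 ± 0.072 (adjusted p = 0.091). Psap, the precursor of the saposin activators, differed by -0.20 (adjusted p = 0.18), with no overlap. Galc, the galactosylceramidase, differed by -0.22 (adjusted p = 0.46) and was the 1 member below the array median.

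Plbd2, a phospholipase B-like protein, differed by -0.23 with no overlap (adjusted p = 0.18). Lipa, the acid lipase for cholesteryl esters and triglycerides, differed by -0.20 and Npc2, a soluble cholesterol carrier, by -0.11. Both had 1 wild type array apart from the others of its genotype. Lipa read 8.57, 8.78 and 8.53 in knockout arrays and 8.98, 8.96 and 8.55 in wild type arrays, and Npc2 read 9.09, 8.95 and 9.08 in knockout arrays and 9.001, 9.05 and 9.40 in wild type arrays. Ppt2 (-0.09) and Pla2g15 (0.03), a lysosomal phospholipase, had overlapping arrays.

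Lysosomal peptidases outside the cathepsins had the lowest median among the roles with at least 5 genes, at -0.46. Of 5 measured, 2 fell (0.712% of all genes were called lower) and none rose. All 5 had every knockout array below every wild type array, which held for 7.98% of all genes. Cpq, carboxypeptidase Q, which releases amino acids from peptides, read 9.42, 9.49 and 9.46 in knockout arrays and 10.17, 10.16 and 10.11 in wild type arrays. The gap of 0.62 was many times the spread within either genotype. The change was -0.69 ± 0.057 (SE, adjusted p = 0.0026), or 61.8% of the wild type level, and it held with each array left out (adjusted p of at most 0.019).

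Dpp7, a dipeptidyl peptidase, read 7.79, 7.71 and 7.67 in knockout arrays and 8.19, 8.27 and 8.19 in wild type arrays. The genotypes stood 0.40 apart. The change was -0.50 ± 0.062 (SE, adjusted p = 0.010), and the call held with each array left out (adjusted p of at most 0.048). Dpp7 is 1 of the members whose upstream DNA, shown above, holds TCACGTGA.

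Lgmn, the asparaginyl endopeptidase that also matures cathepsins, read 7.77, 7.85 and 7.64 in knockout arrays and 8.32, 8.32 and 8.01 in wild type arrays. Wild type array 3 stood below the other wild type arrays and still above every knockout array. The change was -0.46 ± 0.099 (adjusted p = 0.068), and Lgmn was called without wild type array 3 (-0.56, adjusted p = 0.023). Scpep1, a serine carboxypeptidase, differed by -0.22 (adjusted p = 0.19), and Tpp1, a tripeptidyl peptidase, by -0.20 (adjusted p = 0.30).

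The acid phosphatases Acp5 and Acp2 had unlike estimates. Acp5, the tartrate-resistant acid phosphatase, read 10.10, 10.09 and 10.08 in knockout arrays and 10.55, 10.48 and 10.64 in wild type arrays. Its knockout arrays were nearly equal, and the genotypes stood 0.39 apart. The change was -0.47 ± 0.063 (SE, adjusted p = 0.013), and the adjusted p was 0.062, 0.054 and 0.058 without knockout array 1, knockout array 2 and wild type array 1. Acp2, a membrane-bound acid phosphatase of most cells, read 8.55, 8.66 and 8.29 in knockout arrays and 8.61, 8.63 and 8.64 in wild type arrays, a change of -0.13 ± 0.094 (adjusted p = 0.62). Without knockout array 3, the lowest, it was -0.025, and without knockout array 2 it was -0.211.

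The membrane proteins lie in the boundary of the lysosome and include a cholesterol exporter and a receptor that carries an enzyme to the lysosome. Among them 1 of 5 fell (0.712% of all genes were called lower), none rose, and the median change was -0.18. Lamp2, an abundant membrane glycoprotein that also takes part in autophagy, read 9.79, 9.82 and 9.70 in knockout arrays and 10.12, 10.21 and 10.13 in wild type arrays, 0.29 apart. The change was -0.38 ± 0.063 (SE, adjusted p = 0.026), and with each array left out the call ended, at an adjusted p of 0.10, 0.068 and 0.086 without knockout arrays 1, 2 and 3 and of 0.089, 0.10 and 0.057 without wild type arrays 1, 2 and 3. Its relative Lamp1 read 10.79, 10.83 and 10.81 in knockout arrays and 11.06, 11.03 and 11.11 in wild type arrays. That change of -0.26 ± 0.057 was not called (adjusted p = 0.074), although the arrays of each genotype lay close together. Cd63, a tetraspanin, differed by -0.18 with no overlap (adjusted p = 0.32). Scarb2, the receptor that carries β-glucocerebrosidase to the lysosome, differed by -0.15 (adjusted p = 0.57), and Npc1, the cholesterol exporter, by -0.06 (adjusted p = 0.82), with overlapping arrays.

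**Figure D3:**
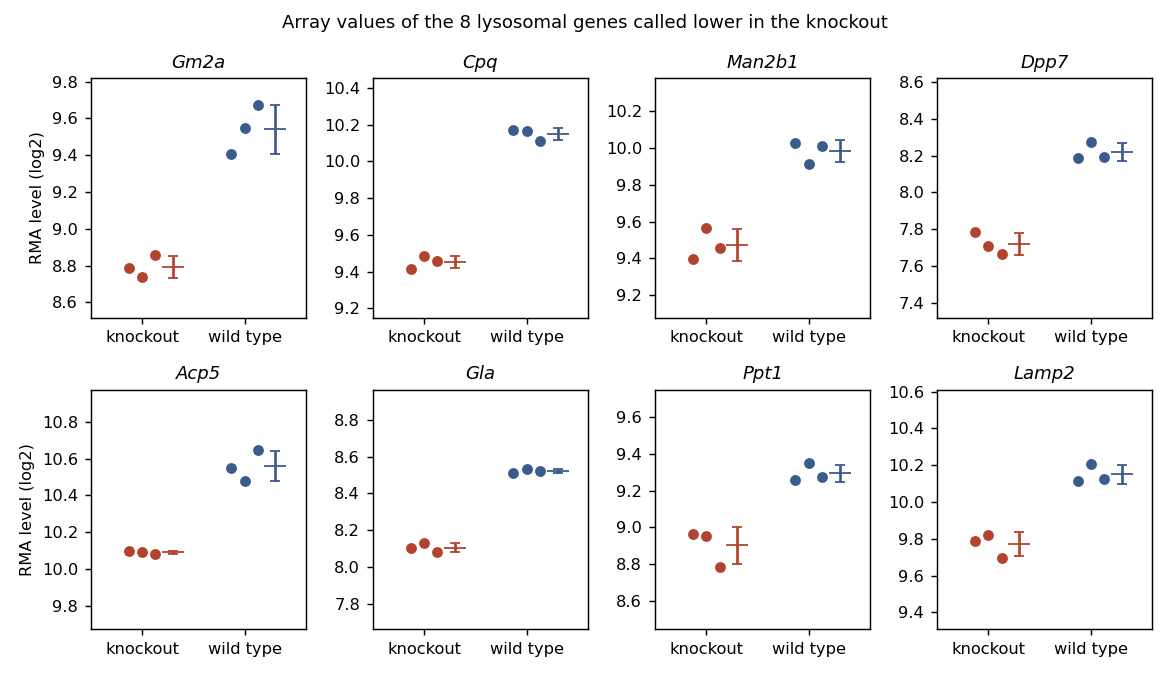
RMA level (log2) of the 8 called genes in each array, knockout on the left and wild type on the right, with mean and SD of 3 arrays beside the points. All panels span the same height of the log2 scale, and in each panel every knockout array lies below every wild type array, by 0.29 (Ppt1 and Lamp2) to 0.62 (Cpq).

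Related members were also compared within each array, as 3 pairs chosen after their values were seen. Man2b1 minus Man2b2 was 0.34, 0.44 and 0.37 in knockout arrays and 0.56, 0.61 and 0.60 in wild type arrays. Ppt1 minus Ppt2 was 0.52, 0.61 and 0.46 in knockout arrays and 0.87, 0.89 and 0.73 in wild type arrays. Lamp2 minus Lamp1 was -0.997, -1.01 and -1.11 in knockout arrays and -0.95, -0.83 and -0.99 in wild type arrays, with only 0.0089 between the nearest arrays of the genotypes. Knockout minus wild type, these differences changed by -0.21, -0.30 and -0.12 in the order given, and in no pair did the arrays of the genotypes overlap. Each pair sets a called gene against a relative that was not called, so the values are a description. The exact two-sided permutation p was 0.1 for each pair, raw and adjusted over the 3, and this is the smallest the design allows. Since the pairs were chosen by these values, that p does not test them, and no share over other pairs of genes was computed.

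In the mean over the set the knockout arrays differed among themselves, while the wild type arrays lay close together. The mean deviation of the 40 genes from their own 6-array means was -0.12, -0.08 and -0.16 in knockout arrays 1, 2 and 3 and 0.11, 0.12 and 0.12 in wild type arrays 1, 2 and 3. Over all genes it ran from 0.0012 to 0.018 in knockout arrays and from -0.026 to 0.0020 in wild type arrays. Within the 12 glycosidases the wild type arrays differed too, at 0.13, 0.09 and 0.16, beside -0.125, -0.09 and -0.17 in knockout arrays. Knockout array 3 was the lowest of its genotype in 23 of 40 members (57.5%), against 33.1% of all genes, and knockout array 2 was the highest in 24 (60%), against 34% of all genes. Without knockout array 2 the median change of the members was -0.25, and without knockout array 3 it was -0.19. Mean levels of the epithelial markers were 11.95, 12.03 and 11.95 in knockout arrays 1, 2 and 3, and Sel1l read 8.70, 9.06 and 8.66. The part of the markers or of Sel1l in this order was not tested.

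**Figure D4:**
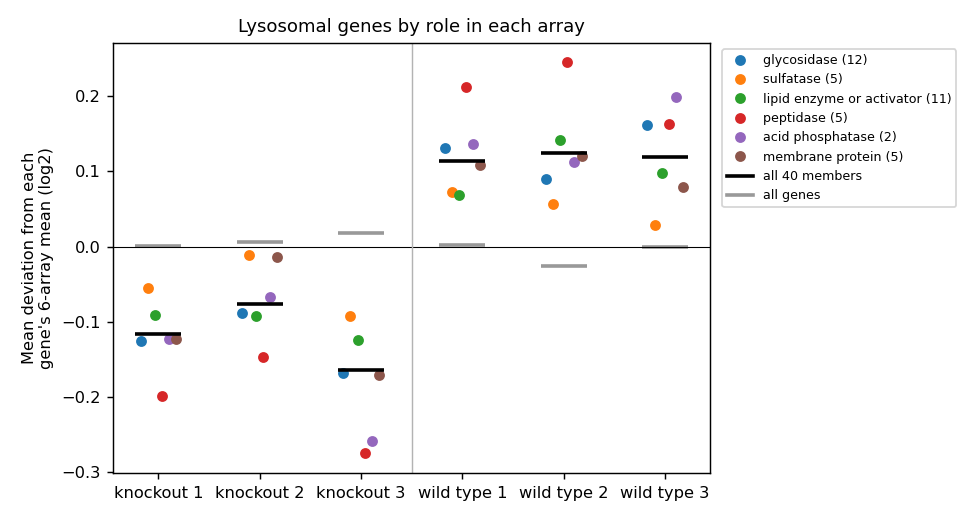
Mean deviation of the members of each role from their own 6-array means (log2) in each array, with the mean of all 40 members in black and of all genes in grey. All 6 roles lie below 0 in each knockout array and above 0 in each wild type array, and the peptidases span the widest range, from -0.27 to 0.24, among the roles of 5 or more genes.

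Other lysosomal genes were listed by function to set the members in their pathway, with the same fit, which called 0.712% of all genes lower. In a list of other hydrolases and cofactors, 1 of 10 measured fell, Smpdl3a, an acid phosphodiesterase related to SMPD1. It read 10.80, 10.93 and 10.99 in knockout arrays and 11.42, 11.49 and 11.39 in wild type arrays, a change of -0.53 (adjusted p = 0.012, up to 0.055 with an array left out). The median change of that list was -0.13. Of 24 other lysosomal membrane proteins 1 fell, Slc36a1, an exporter of small amino acids, which read 9.94, 10.05 and 10.22 in knockout arrays and 10.80, 10.80 and 10.71 in wild type arrays, a change of -0.70 (adjusted p = 0.0080). The median of those 24 was -0.02.

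Of 14 cathepsins, 6 fell (0.712% of all genes were called lower), with a median change of -0.32. Of 20 genes of the vacuolar proton pump, with a median of -0.03, 1 fell. It was the accessory subunit gene Atp6ap1 (-0.30, adjusted p = 0.044, and not called with any array left out). The cathepsins included Ctsa, which binds NEU1 and GLB1 in one complex and changed by -0.33 (adjusted p = 0.034, and up to 0.14 with an array left out).

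Genes that tag or sort lysosomal enzymes were not called in either direction (0 of 19, with 3 at an unadjusted p under 0.05, all lower, in limma, beside 5.62% of all genes lower at that p). Their median change was -0.02. The sorting receptors Sorl1 and Sort1 had the smallest p, with changes of -0.25 (adjusted p = 0.080) and -0.29 (adjusted p = 0.081) and knockout arrays all below wild type arrays. None of 8 genes for TFEB, its relatives and their regulators was called by limma, with 2 at an unadjusted p under 0.05, beside 13.3% of all genes. Those were Mitf (0.21, adjusted p = 0.30, and 0.07 with an adjusted p of 0.80 over the mean of its 2 probe sets) and Fnip2 (-0.26, adjusted p = 0.30). Tfeb itself read 7.67, 7.74 and 7.76 in knockout arrays and 7.69, 7.69 and 7.77 in wild type arrays. Tfe3 read 8.26, 8.25 and 8.16 in knockout arrays and 8.08, 8.08 and 8.15 in wild type arrays (0.12, adjusted p = 0.45). In 2 of the 8, Tfe3 and Mitf, every knockout array lay above every wild type array, as in 11.4% of all genes. The activity of TFEB is set largely by its phosphorylation and location in the cell, which arrays do not measure.

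Macrophages and dendritic cells are rich in lysosomes and could be present in the preparation. None of their 16 markers was called by limma (1 at an unadjusted p under 0.05, beside 13.3% of all genes), and 2 of 16 lay above the array median. Their mean level was 5.51 to 5.62 in knockout arrays and 5.54 to 5.62 in wild type arrays, and the median change was 0.02. RMA values have no zero, and the part of such cells in the lysosomal changes was not tested. Cd14 had the smallest p of the list, with 7.87, 7.76 and 7.82 in knockout arrays and 8.14, 8.27 and 8.08 in wild type arrays (-0.35, adjusted p = 0.054). Markers of leukocytes and lymphocytes (12 measured, median -0.0012) and of stroma (13 measured, median -0.0047) had no called gene in limma, beside 1.63% of all genes. None had an unadjusted p under 0.05, beside 13.3% of all genes, and in none did the genotypes stand apart, beside 19.4%. Only 2 of the 12 and 4 of the 13 lay above the array median, so these counts say little about such cells. Their part in the lysosomal changes was not tested.

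Among the epithelial markers none of 14 was called by limma, with a median change of -0.05. An unadjusted p under 0.05 was reached by 5 of the 14, beside 13.3% of all genes, and 4 of these were lower. In 5 markers every knockout array lay below every wild type array, beside 7.98% of all genes and 12.7% of the 9968 brightest. In 1 every knockout array lay above, beside 11.4% of all genes. Car4, a carbonic anhydrase of mature colonocytes, read 11.99, 12.31 and 12.17 in knockout arrays and 12.72, 12.81 and 12.52 in wild type arrays (-0.52, adjusted p = 0.051). Slc26a3, a chloride and bicarbonate exchanger of the colon surface, differed by -0.36 (adjusted p = 0.16), and the adhesion proteins Cdh1 and Epcam each by -0.23 (adjusted p = 0.12), with knockout arrays all below wild type arrays in these 4 genes. Muc2, the goblet cell mucin, was the fifth marker with all knockout arrays below (adjusted p = 0.82). Cdx2, an intestinal transcription factor, differed by 0.28 (adjusted p = 0.20), with all knockout arrays above. The part of such shifts within the epithelium in the lysosomal changes was not tested.

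**Figure D5:**
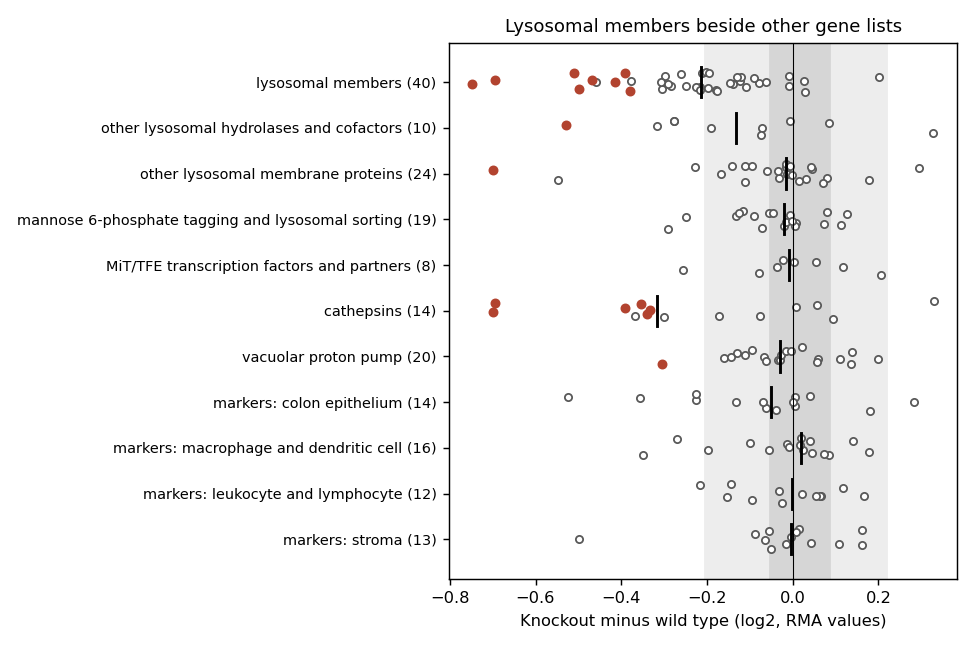
Change (knockout minus wild type, log2) of each member and of each gene in the other lists, with the number measured in brackets, filled points for an adjusted p under 0.05 and a black bar at each median. Dark and light grey bands hold the middle 50% and 90% of all genes. The median is -0.21 in the members and -0.32 in the cathepsins, and between -0.05 and 0.02 in the cell type marker lists.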

How the data were processed

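The deposited values are log2 intensities, which the submitters' processing notes credit to RMA, 1 column for each of 6 arrays (3 knockout and 3 wild type). The log2 scale was read from their range, while the software, probe set definition and genome build were not stated in those notes. Of 35556 probe sets, 21789 named 1 gene, 1621 several and 12146 none in the platform annotation. Symbols were updated through RefSeq (GRCm38.p6). Each gene took its probe set of highest mean, which gave 19936 genes, and only Arsb among the members had a second. The genotype contrast used lmFit and eBayes of limma 3.58.1 (R 4.3.3), with a two-sided test, Benjamini-Hochberg adjustment over all genes and calls under 0.05. Errors are moderated SE. The number of arrays limits the precision.

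The members, lists and alternatives were chosen with earlier results of these data known. Named genes were called members, members with genotypes apart, and the 2 of smallest p and the extremes of level in each role. From other lists the rule was the called genes or the 2 of smallest p, but it was not followed throughout. Of 6 called cathepsins only Ctsa was named, of the macrophage list only Cd14, and of the leukocyte and stroma lists no gene. Remaining members, Tfeb, Tfe3, Ctsa and the epithelial markers beyond Car4 and Cdh1 were picked with their values in view. In simulated arrays of 19936 genes with 200 altered, the fit was tested and called 90% at a log2 change of 0.5 and 99% at a log2 change of 1. The simulated noise was normal and drawn separately for each gene with its moderated SD. Smaller changes, such as the members' median of -0.21, were not simulated. Alternatives were a replicate block, quantile normalization, median centring, filters on dim genes, an intensity trend, a robust prior, array weights, other uses of probe sets and each array left out. Tables and figures were made in Python 3.11.15 with pandas 2.3.3, scipy 1.17.1 and matplotlib 3.10.9. No batch could be tested, since scan dates were not used here.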

Additional observations from a re-analysis of the deposited data

How the results depend on the processing

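The median change of the 40 lysosomal genes stayed below 0 under every alternative run, from -0.253 to -0.187 with 1 array left out, and no member was called higher in any of them. The count of called members, 8, became 13 and 15 without the dimmest 25% and 50% of genes. There both the variance prior and the adjustment rest on fewer genes, and their parts were not separated. The count was 16 with an intensity trend and 3 to 8 with 1 array left out. The count over all genes, 325, became 598 without the dimmest 50% of genes, 614 with the trend and 69 to 303 with 1 array left out. Sel1l changed by -0.867 to -0.668 with 1 array left out and lost its call without knockout arrays 1 or 3 or wild type arrays 1 or 2. The sample labels do not say whether replicate numbers pair the arrays. The deviations of same-numbered arrays correlated at -0.104, 0.151 and 0.153. These values cannot decide it, since differently numbered arrays were not set beside them. With the replicate block 7 members and 217 genes were called. Ppt1 (adjusted p = 0.067) and Lamp2 (adjusted p = 0.057) were not called there and Lgmn (adjusted p = 0.042) was. Of the 240 changes with 1 array left out, 209 kept direction and side of the threshold, 20 lost a call, 2 gained one and 9 turned sign. These 9 were small estimates, which ran from -0.059 to 0.026 for Arsa, from -0.014 to 0.065 for Idua, from -0.040 to 0.042 for Ids and from -0.183 to 0.015 for Npc2. Arsa was 0.026, 0.005, 0.014 and 0.006 without knockout array 1, knockout array 3, wild type array 1 and wild type array 2. Idua was -0.014 without knockout array 2 and -0.007 without wild type array 2, Ids was 0.013 without knockout array 3 and 0.042 without wild type array 2, and Npc2 was 0.015 without wild type array 3. The cause was not tested. Galc was left out by the filter on the dimmest 50% of genes.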
